A study of Mus musculus with 40 samples.

Results

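The nuclear-encoded genes of oxidative phosphorylation were followed in the mouse cortex after high-frequency head impact (HF-HI), with and without the NMDA receptor blocker memantine. Members were chosen by gene symbol alone, as every transcript whose RefSeq symbol begins with Nduf, Uqcr, Atp5 or Cox4 to Cox8, or is Sdha, Sdhb, Sdhc, Sdhd, Cycs or Cyc1. The rule found 71 transcripts of 69 genes among the 6831 transcripts (5849 genes) of the deposited table. Cortex RNA came from male C57BL/6 mice, 12 weeks old, that were given memantine or saline by intraperitoneal injection 1 h before each daily session of HF-HI or sham procedure and were sampled 24 h after injury. Each of the 4 groups held 10 libraries: sham mice given saline (saline sham) or memantine (memantine sham), and impacted mice given saline (saline HF-HI) or memantine (memantine HF-HI). All mice were of one strain and sex, and the sham mice were injected too.

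Oxidative phosphorylation takes place in the inner membrane of mitochondria. Complex I (NADH dehydrogenase) and complex II (succinate dehydrogenase) pass electrons to ubiquinone, complex III (cytochrome bc1) passes them to the soluble carrier cytochrome c, and complex IV (cytochrome c oxidase) passes them to oxygen. Complexes I, III and IV pump protons, and complex V (ATP synthase) uses the return flow to make the ATP on which ion pumping at synapses depends. Complex II is encoded wholly in the nucleus, whereas the other complexes combine nuclear subunits with subunits encoded in mitochondrial DNA.

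The table held transcripts for most nuclear subunits. For complex I it held 29 transcripts of 28 genes, which covered 27 of 37 subunit genes and the assembly factor Ndufaf4. Complex II was complete with 4 of 4 genes. Complex III had 8 of 9 genes, without Uqcrq, and cytochrome c was represented by Cycs. Complex IV had all 11 of its 11 broadly expressed nuclear subunits, Ndufa4 included, together with Cox7a2l, which helps complexes III and IV to associate. Complex V had 17 transcripts of 16 genes, which were 16 of 17 listed, without Atp5g1. The muscle, lung and testis forms of complex IV subunits (Cox4i2, Cox6a2, Cox6b2, Cox7a1, Cox7b2, Cox8b and Cox8c) were not listed in the table, so no pair of Cox tissue forms could be compared. The table held 0 mitochondrially encoded genes. Its lowest mean was 549.2 normalised counts, so a subunit gene that is not listed may be expressed below that level.

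The 71 transcripts together made up 0.793% to 0.916% of the normalised counts of a library, and the summed reads of a library ran from 13322404 to 17529644. The mean count of a member ran from 556 to 14590.4 with a median of 1206, against a median of 1233 for all transcripts. At that median, reads counted at random would vary by 2.88% (coefficient of variation). Cortex was checked with marker genes. Of the cortical layer markers 6 of 8 were present. The neuronal, inhibitory neuron, astrocyte and oligodendrocyte lists were all present with every gene of the list. Of the others, 5 of 7 microglial, 2 of 5 endothelial and 0 of 5 blood markers were in the table. A marker that is not listed may be expressed below the lowest mean of the table. Of the striatal markers, a sign of how much neighbouring tissue a dissection held, 6 of 9 were present. They summed to between 19174 and 29505 counts (median 23454) in saline HF-HI and between 19683 and 33605 (median 28683) in saline sham. For the thalamus 3 of 5 markers were present, and their sum ran from 3852 to 11512 counts over the 40 libraries. The choroid plexus marker Ttr ran from 74.5 to 22031 counts over the 40 libraries. In whole cortex, fewer cells of a type and less RNA per cell cannot be told apart. The labels number the 10 samples of a group but do not state that each came from its own mouse, so p-values measure the spread between these samples.

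The starts of many respiratory chain genes lie in GC-rich promoters with sites for the factor NRF1 or for ETS-family factors such as GABP, which are known to drive mitochondrial genes. The reference windows (RefSeq, build GRCm38.p6) of 250 bases before to 50 bases from the start were available for 57 of the 69 genes, in 61 windows. Their median GC content was 58.3%, against 52.7% for all windows and 62.7% for the windows of genes in the deposited table. The letters of an NRF1-type motif (GCGCA, any base, then GCGC, on either strand) stood in 17 of the 61 windows (27.9%, 16 genes), against 4.60% of all 32851 windows and 10.8% of the windows of genes in the deposited table. The ETS-type letters CCGGAAGT stood in 5 of 61 windows (8.20%), against 3.89% of all windows and 7.08% of those of genes in the table, so their share was near that of the genes in the table. The YY1-type letters AAGATGGC stood in 7 (11.5%), against 2.75% and 4.40%. No match of one motif overlapped a match of another in the windows of members. By complex, the NRF1-type letters were found for 6 of 24 genes of complex I with a window, 2 of 3 of complex II, 1 of 5 of complex III, 1 of 10 of complex IV and 6 of 14 of complex V, and not for Cycs.

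Stretches upstream of 6 genes described below show how these letters are placed, with the match in capitals and each sequence read 5′ to 3′ on the strand of the gene. They are Sdha (chr13:74350241-74350348, minus strand), Sdhd (chr9:50603909-50603938, minus strand), Ndufb4 (chr16:37654371-37654569, minus strand), Ndufaf4 (chr4:24897960-24897989, plus strand) and Atp5g2 (chr15:102671070-102671099, minus strand) for the NRF1-type letters, and Uqcr11 (chr10:80406870-80406897, minus strand) for the ETS-type letters.
Sdha: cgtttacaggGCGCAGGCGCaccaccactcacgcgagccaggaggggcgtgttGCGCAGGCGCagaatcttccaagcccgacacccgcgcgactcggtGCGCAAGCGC
Sdhd: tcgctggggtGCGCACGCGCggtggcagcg
Ndufb4: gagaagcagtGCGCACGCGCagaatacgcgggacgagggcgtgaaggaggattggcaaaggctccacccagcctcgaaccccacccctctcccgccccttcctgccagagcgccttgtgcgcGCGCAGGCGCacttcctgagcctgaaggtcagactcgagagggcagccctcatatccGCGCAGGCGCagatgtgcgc
Ndufaf4: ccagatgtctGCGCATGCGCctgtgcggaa
Atp5g2: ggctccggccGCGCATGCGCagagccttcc
Uqcr11: tctctcctccCCGGAAGTagatgtcaat

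Sdha and Ndufb4 each held 3 copies of the NRF1-type letters before the start, and the last copy in Sdha ended at the base just before it. In Atp5g3 and Uqcrc1, also described below, the NRF1-type letters lay after the start, at bases 13 to 22 in Atp5g3 and at bases 6 to 15 and 31 to 40 in Uqcrc1. A match is a description of the letters in the reference window, and the binding of a factor was not measured.

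Levels were compared between genes per kilobase of transcript, as normalised read counts per kb in saline sham. Genes of complex IV and complex V led the order. The highest was Atp5b, the catalytic beta subunit of ATP synthase, at 7682 ± 277 counts per kb (mean ± SD, n = 10), followed by Cox4i1, the largest nuclear subunit of complex IV, at 6632 ± 355. Cox8a (6044 ± 322), a small subunit of complex IV, Atp5a1 (5263 ± 235), the alpha subunit of ATP synthase, and Cox6c (4971 ± 188) came next. The lowest were Sdhc, a membrane anchor of complex II, at 283 ± 13.1, and Ndufaf4 at 170.1 ± 10.1. Their transcripts are also the longest of the set, at 3171 and 3632 bases, where the median member had 838 bases.

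**Figure D1:**
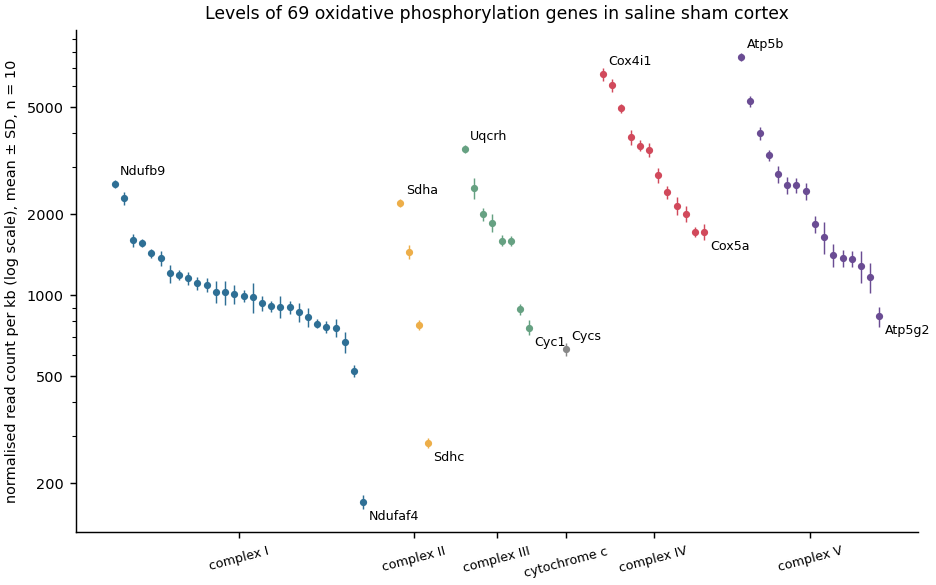
Normalised read counts per kb (log scale) of the 69 genes in the 10 saline sham libraries, ordered within each complex, with points for the mean and bars for the SD. Complex IV spans from Cox5a at 1721 to Cox4i1 at 6632 counts per kb, above most of complex I, which spans from Ndufaf4 at 170.1 to Ndufb9 at 2601.

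Among the listed genes, the complexes differed in how far their subunits spread. The lowest mean listed, 549.2 counts, is a higher level per kb for a short transcript than for a long one. The low end of each range therefore depends on this limit, on transcript length and on subunit genes that are not listed. Complex I subunits ranged from Ndufs4, an accessory subunit, at 522 counts per kb to Ndufb9, an accessory subunit of the membrane arm, at 2601, a 4.98-fold range over 27 genes. Complex IV ranged 3.85-fold over 11 genes, from Cox5a at 1721 to Cox4i1. Complex III ranged 4.61-fold, from Cyc1 (cytochrome c1) at 758 to Uqcrh, the hinge protein at the docking site of cytochrome c, at 3499.7. Complex II ranged 7.81-fold over its 4 genes, and complex V ranged 9.19-fold, from Atp5g2 at 836 to Atp5b. Of the complex IV subunits, 7 of 11 lay above the highest complex I gene, against 5 of 16 for complex V, 1 of 8 for complex III and 0 of 4 for complex II. Many neighbours in the order could not be separated: among 63 pairs of neighbouring genes within a complex, only 16 had ranges over the 10 saline sham libraries that did not overlap.

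Over the groups, the median level of a complex moved less than it did between libraries. For complex I it ran from 932 to 1107 counts per kb over the saline sham libraries (median 1004) and from 914 to 1123 over the saline HF-HI libraries (median 997). It ran from 915 to 1058 for memantine sham (median 1013) and from 917 to 1059 for memantine HF-HI (median 1009.6). For complex IV the medians of the 4 groups were 3475, 3476, 3392 and 3461 counts per kb in the same order, and for complex V they were 2134, 2187, 2104 and 2189. The medians were 1088, 1135, 1113 and 1108 for complex II and 1722, 1759.9, 1704 and 1708 for complex III. The ranges of all 4 groups overlapped for every complex.

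The first comparison asked whether head impact without the drug changed these transcripts. Between saline HF-HI and saline sham, the unadjusted limma p-value of 3 of 71 members was under 0.05, and 9.53% of all transcripts passed. Of these 1 was higher and 2 were lower, where 4.58% of all transcripts were higher and 4.95% lower. A Benjamini-Hochberg adjusted p-value under 0.1 in limma was reached by 0 members, where 0.205% of all transcripts reached it, and the smallest of a member was 0.306. The members that passed belong to complex I (Ndufv2 and Ndufb9) and complex III (Uqcr11), and 0 of 4 in complex II, 0 of 12 in complex IV and 0 of 17 in complex V did so. The median log2 change of the count was 0.00 for members and 0.00 for all transcripts.

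Ndufv2 (NM_028388, chromosome 17, 66078795 to 66101559, mm10) encodes an iron-sulfur subunit of the NADH-oxidising module of complex I and had the largest change. It ran from 1031 to 1335 normalised counts in saline sham (median 1116) and from 691 to 1311 in saline HF-HI (median 934). Most of the HF-HI libraries lay below every sham library, but 2 lay among them, so the groups overlapped. The mean was 1136 ± 101 in saline sham and 958 ± 176 in saline HF-HI (SD, n = 10 each). The log2 change was -0.26 ± 0.09 (SE) with a 95% interval from -0.44 to -0.08, 8 of 10 HF-HI libraries were below the sham mean, and the permutation p-value was 0.0136 (two-sided, unadjusted; limma p = 0.00547, adjusted p = 0.306).

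Under memantine the Ndufv2 groups could not be separated. The transcript ran from 777 to 1246 in memantine sham (median 1087) and from 855 to 1206 in memantine HF-HI (median 1049), with means of 1027 ± 154 and 1067 ± 118. The ranges of both groups overlapped over most of their length, and the log2 change was 0.06 with a 95% interval from -0.12 to 0.24. The difference between the 2 impact effects, tested as the interaction, was 0.32 on the log2 count scale, with a 95% interval from 0.07 to 0.58 (limma p = 0.0144, adjusted p = 0.999). The drug contrasts went in opposite directions, and neither passed. Memantine sham differed from saline sham by -0.16 (95% interval -0.33 to 0.02, limma p = 0.0851). Memantine HF-HI differed from saline HF-HI by 0.17 (-0.01 to 0.35, limma p = 0.0710). Ndufv2 was the 1 of 71 members that passed the unadjusted threshold in the interaction, where 3.73% of all transcripts passed and 1.92% passed as higher. RefSeq lists 2 mRNAs for Ndufv2, of which 1 is in the table, so a shift between transcript forms cannot be told apart from a change of the gene.

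**Figure D2:**
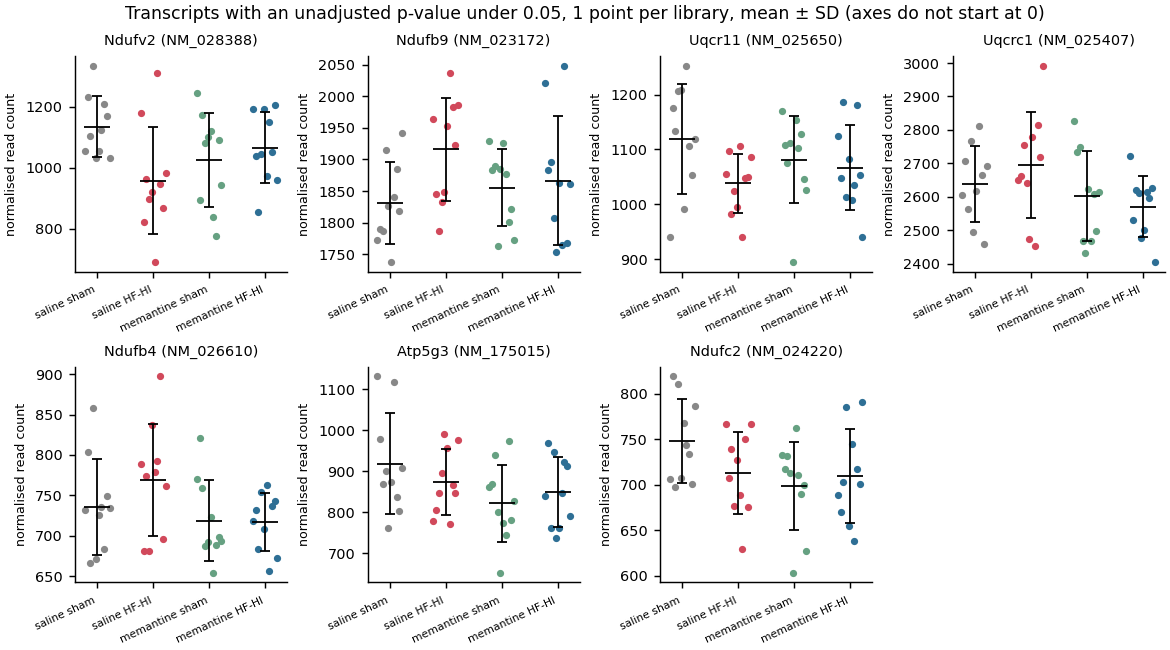
Normalised read counts of the 7 members with an unadjusted limma p-value under 0.05 in any contrast, 1 point per library in 4 groups of 10, with the mean and SD in black and axes that do not start at 0. Ndufv2 is spread from 691 to 1311 in saline HF-HI, and for each of the 7 transcripts all 4 groups overlap.

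The other 2 were small changes. Ndufb9 (NM_023172, chromosome 15, 58933801 to 58939516) ran from 1737 to 1942 counts in saline sham (median 1822) and from 1787 to 2037 in saline HF-HI (median 1938). The HF-HI libraries sat higher, with 9 of 10 above the sham mean. The log2 change was 0.06 ± 0.03 (SE), or 4.58% with a 95% interval from 0.583% to 8.75% (limma p = 0.0257, adjusted p = 0.457, permutation p = 0.0224).

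Uqcr11 (NM_025650, chromosome 10, 80402997 to 80406821), a small subunit of complex III, ran from 939.9 to 1252 counts in saline sham (median 1126) and from 940.2 to 1106 in saline HF-HI (median 1048). All 10 HF-HI libraries lay below the sham mean of 1119 ± 99.7, while the lowest libraries of both groups were at the same level. The log2 change was -0.10 ± 0.05 (SE) with a limma p of 0.0335, an adjusted p of 0.486 and a permutation p of 0.0399. With the striatal markers as a covariate the difference on the deposited scale was -0.03 in place of -0.04 and its limma p was 0.106, and 6.15% of all transcripts passed in that fit. The median of the striatal markers was lower in saline HF-HI, as given above. Their part in the Uqcr11 result was not tested further.

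For most members the libraries limited the size of any change that could have been present. Between saline HF-HI and saline sham, the 95% interval of the fold change lay wholly within 1.25-fold in either direction for 65 of 71 members (91.5%), against 74.8% of all transcripts and 90.4% of the 166 other transcripts shorter than 1000 bases. The 6 others were Ndufv2, Atp5j and the 4 transcripts of Atp5pb and Ndufs1. Atp5j, subunit F6 of the peripheral stalk of ATP synthase, had a 95% interval from -0.39 to 0.22 on the log2 scale, with a lowest library of 314 counts against a median of 943 in saline HF-HI.

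**Figure D3:**
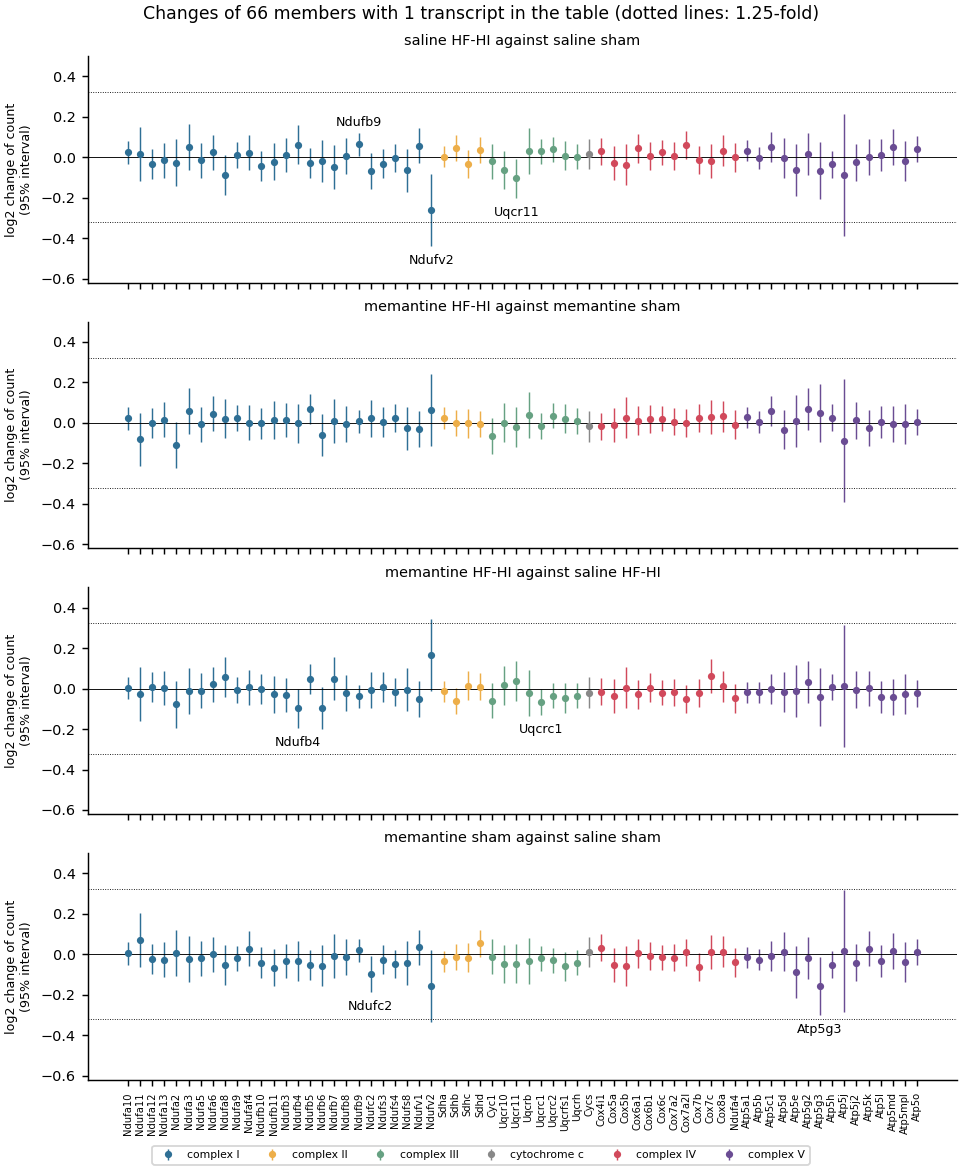
Log2 change of the normalised count with its 95% interval for 66 of the 67 members with 1 transcript in the table, coloured by complex, in 4 contrasts, with dotted lines at 1.25-fold. In saline HF-HI against saline sham the 66 changes lie between -0.26 (Ndufv2) and 0.06 (Ndufb9), and names mark transcripts with an unadjusted limma p-value under 0.05.

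Next, head impact was compared under memantine. Between memantine HF-HI and memantine sham, 0 of 71 members passed the unadjusted threshold in limma, and 4.61% of all transcripts passed. An adjusted p-value under 0.1 was reached by 0 members and by 0.0146% of all transcripts. The smallest was p = 0.06 for Ndufa2, an accessory subunit of complex I, which differed by -7.31% with a 95% interval from -14.4% to 0.402%. The median log2 change over the members was 0.01. The interval lay within 1.25-fold for 66 of 71 members.

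Memantine was then compared with saline in mice that had received impacts. Between memantine HF-HI and saline HF-HI, 2 of 71 members passed the unadjusted threshold, both lower, where 3.91% of all transcripts passed in either direction and 2.39% passed as lower. Uqcrc1 (NM_025407, chromosome 9, 108936648 to 108949641), a core protein of complex III, ran from 2454 to 2992 counts in saline HF-HI (median 2690.5) and from 2405 to 2722 in memantine HF-HI (median 2605). The drug group sat lower with a narrower range, and 9 of 10 of its libraries were below the saline HF-HI mean. The change was -4.48% with a 95% interval from -8.58% to -0.203% (limma p = 0.04, adjusted p = 1, permutation p = 0.0451).

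Ndufb4 (NM_026610, chromosome 16, 37647602 to 37654368), an accessory subunit in the membrane arm of complex I, ran from 681 to 897 counts in saline HF-HI (median 776) and from 656 to 763 in memantine HF-HI (median 725). All 10 memantine libraries were below the saline HF-HI mean of 769 ± 68.9, but the ranges overlapped. The change was -6.55% with a 95% interval from -12.6% to -0.0687% (limma p = 0.0456, adjusted p = 1, permutation p = 0.0453). The interval lay within 1.25-fold for 66 of 71 members, and the median log2 change was -0.02 over members and 0.00 over all transcripts.

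Without impact, memantine sham against saline sham gave 2 of 71 members with an unadjusted limma p-value under 0.05, both lower, where 7.51% of all transcripts passed and 3.84% passed as lower. The smallest adjusted limma p-value of a member was 0.634, and 0.0293% of all transcripts had one under 0.1. This comparison shares the saline sham libraries with the first one and the memantine sham libraries with the second. Of the members, 21 of 71 had an estimate above 0. So had 53 of the 166 other transcripts shorter than 1000 bases and 3397 of all 6831. The median log2 change was -0.02 over members, 0.00 over all transcripts and -0.02 over those 166.

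Atp5g3 (NM_175015, chromosome 2, 73908447 to 73912464) encodes subunit c of the rotor ring of ATP synthase. It ran from 762 to 1131 counts in saline sham (median 888) and from 653 to 973 in memantine sham (median 814). A pair of saline sham libraries above 1100 widened the control group, and the ranges overlapped over most of their length. The change was -10.3% with a 95% interval from -18.7% to -1.01% (limma p = 0.0311), and the permutation test did not pass (p = 0.0667). RefSeq lists 3 mRNAs for Atp5g3, of which 1 is in the table.

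Ndufc2 (NM_024220, chromosome 7, 97400003 to 97407800), an accessory subunit of complex I, ran from 698 to 819 counts in saline sham (median 739) and from 603 to 762 in memantine sham (median 712). The drug group was lower, with 9 of 10 libraries below the saline sham mean. The change was -6.58% with a 95% interval from -12.2% to -0.575% (limma p = 0.0325, permutation p = 0.0319). With the mean of the other short transcripts as a covariate neither Atp5g3 (limma p = 0.0589) nor Ndufc2 (limma p = 0.0811) passed, and the 3 members that passed in that fit were all higher, where 5.91% of all transcripts passed.

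Atp5g2, which encodes the same mature subunit c as Atp5g3 from another gene, had 538 to 733 counts in saline sham (median 598) and 519 to 655 in memantine sham (median 621). The ranges overlapped, and its difference of -1.23% had a 95% interval from -8.09% to 6.13% (limma p = 0.727). The Atp5g3 and Atp5g2 changes were not tested against each other.

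The 4 genes of complex II, the only complex shared with the citric acid cycle, passed in none of the contrasts. Sdha, the flavoprotein that oxidises succinate, ran from 6085 to 6644 counts in saline sham (median 6414) and from 6172 to 6889 in saline HF-HI (median 6404). It ran from 5825 to 6619 in memantine sham (median 6222) and from 5902 to 7039.9 in memantine HF-HI (median 6386), and all ranges overlapped. The 95% interval of its difference with impact ran from -3.33% to 3.94% under saline and from -1.92% to 5.45% under memantine. Sdhb, the iron-sulfur subunit, had medians of 1613, 1709, 1631 and 1643 counts in the same order of groups, and its difference with impact under saline was 3.29% with a 95% interval from -1.14% to 7.91%. Sdhc and Sdhd, the membrane anchors, differed with impact under saline by -2.33% (95% interval -6.94% to 2.51%) and 2.54% (-1.94% to 7.23%). Their unadjusted limma p-values were above the threshold in all 5 contrasts.

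The mobile carrier and its partners did not pass either. Cycs, cytochrome c, ran from 1750.1 to 2144 counts in saline sham (median 1971) and from 1846 to 2135 in saline HF-HI (median 2004), with a 95% interval of the difference from -4.10% to 6.57%. Cyc1 had medians of 1147 and 1138 counts in the same groups, with an interval from -7.03% to 4.83%. Ndufa4, named for complex I but now placed in complex IV, had medians of 2216, 2154, 2157 and 2144 counts in the 4 groups, and the difference with impact under saline was 0.0224% with a 95% interval from -4.78% to 5.07%. Cox7a2, a complex IV subunit, had medians of 1579 and 1560.4 counts in saline sham and saline HF-HI. Its relative Cox7a2l had medians of 1877 and 1980.0, a difference of 4.34% with an interval from -0.532% to 9.45% (limma p = 0.0771). Atpif1, the inhibitor of ATP synthase, is listed in the table under a symbol outside the rule and had medians of 1506, 1521, 1509 and 1525 counts in the 4 groups.

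A pair of genes had 2 transcripts each in the table, and there the counts were split differently from library to library. For Atp5pb, subunit b of the peripheral stalk of ATP synthase, NM_009725 was at 0 in 30 of 40 libraries and between 2127 and 3254 counts in the other 10. In those 10 libraries NM_001304719 had 42.8 to 102.5 counts, and in the remaining 30 it had 2278 to 3453. Each library thus carried nearly all counts on 1 form. The 10 libraries were spread over the groups, with 3 in each saline group and 2 in each memantine group.

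**Figure D4:**
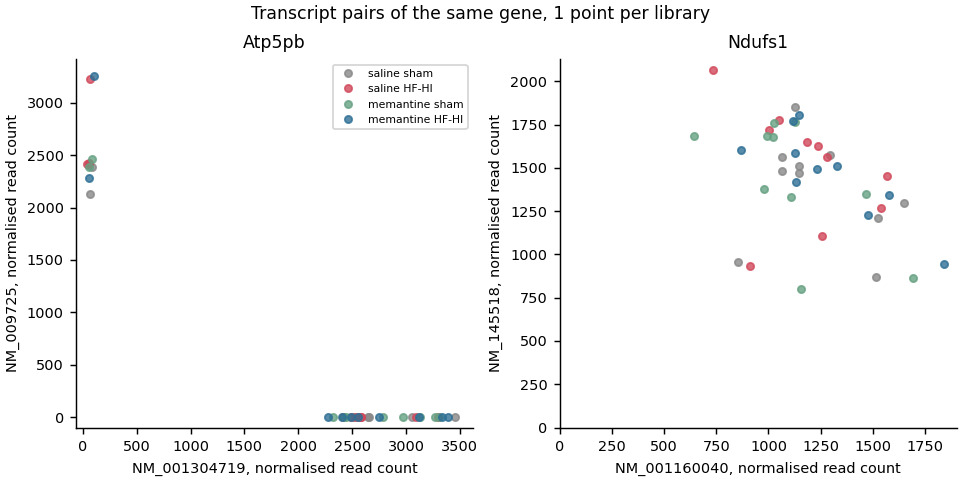
Normalised read counts of the 2 transcripts of Atp5pb (left) and of Ndufs1 (right), 1 point per library, coloured by group. The Atp5pb libraries fall on either axis, with 30 of 40 at 0 for NM_009725, while for Ndufs1 both forms are above 0 in all 40 libraries and NM_145518 holds 33.7% to 73.7% of their sum.

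The sum of the Atp5pb forms was more even than the single forms and ran from 2189 to 3453 counts over all libraries (median 2560.0). Its log2 SD ran from 0.181 (saline HF-HI) to 0.231 (memantine HF-HI), above the median of 0.0916 within groups over members. Its group medians were 2540.3, 2561, 2668 and 2655 in the same order of groups, and the sum did not pass with impact under saline (limma p = 0.615). For Ndufs1, the largest subunit of the NADH module of complex I, NM_145518 took between 33.7% and 73.7% of the counts of both forms. The Ndufs1 sum had medians of 2642, 2819, 2616 and 2758 counts in the 4 groups (limma p = 0.588 for impact under saline). Single forms of these genes therefore had wide intervals in every contrast. RefSeq lists more mRNAs than the table holds for 18 of the 69 genes.

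The spread between libraries was below the median of all transcripts for most members. The SD of the log2 count within groups had a median of 0.0916 over members, 0.0997 over the 166 other transcripts shorter than 1000 bases and 0.115 over all transcripts, where counting error gives a median of 0.0415 for members, and 57 of 71 members and 100 of the 166 other short transcripts lay below the median of all transcripts. The widest were the forms of Atp5pb, and next came those of Ndufs1 together with Atp5j, which had an SD of 0.339.

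What spread there was ran in common. After group means were removed, 45 of 71 members had a Pearson correlation over 0.5 with the mean of the members of other genes across the 40 libraries (median 0.556), given here as a description of values that share the same libraries. The share over 0.5 with the member mean was 34.9% among the 166 other transcripts shorter than 1000 bases and 3.30% among the longer ones. Among members the share was similar in both length classes. It was 65.1% of the 43 shorter than 1000 bases (median 0.556) and 60.7% of the 28 longer ones (median 0.552). Atp5a1 (0.91) and Atp5b (0.90), which have 2471 and 1916 bases, followed the other members most closely, and Cox7c, a small complex IV subunit, had 0.795. Ndufv2 followed them least among the genes with 1 transcript in the table apart from Ndufaf4, at 0.18 against 0.0488. By complex, the median was 0.534 for complex I, 0.665 for complex II, 0.547 for complex III, 0.632 for complex IV and 0.556 for complex V.

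**Figure D5:**
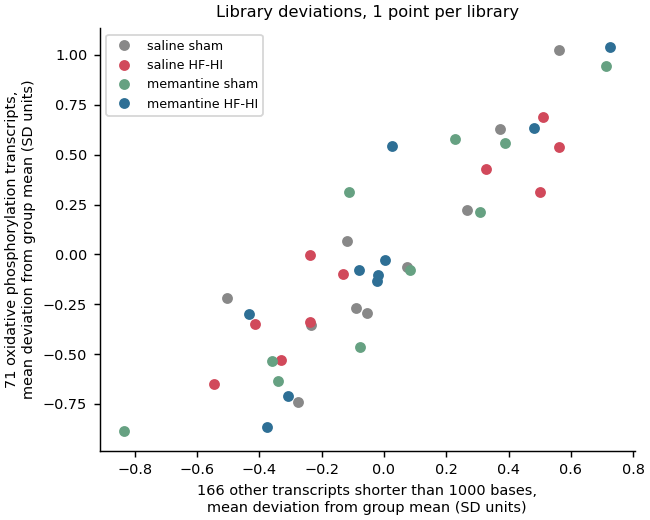
Mean deviation of the 71 members from their group means, in SD units of each transcript, against the same mean over the 166 other transcripts shorter than 1000 bases, 1 point per library. The points rise together from memantine sham replicate 5 (-0.834 and -0.887) to memantine HF-HI replicate 1 (0.727 and 1.04), with libraries of all 4 groups on both sides of 0.

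The common part was also seen in the mean of the other short transcripts, although among members it was not confined to short ones. The mean deviation of the members and that of the 166 other short transcripts had a Pearson r of 0.90 and a Spearman rho of 0.881 over the 40 libraries. Without the 2 libraries farthest from the median of the short transcripts, r was 0.876. Within groups of 10, r ran from 0.865 (saline sham) to 0.95 (saline HF-HI). The members have a median length of 838 bases, against 4008.5 for all transcripts, and 43 of 71 are shorter than 1000 bases. A covariate was also made from the 166 short transcripts, as the mean of their deposited values standardised over all 40 libraries. Group means were not removed from it, so group differences of the short transcripts stayed in it. With this covariate, the members passing the unadjusted threshold were 6 of 71 for impact under saline (2 higher, 4 lower). In the same fit 10.3% of all transcripts passed. For impact under memantine 3 members passed, all lower, against 4.95% of all transcripts, and for memantine in impacted mice 5 passed (1 higher, 4 lower), against 4.10%. For memantine in sham mice 3 passed, all higher, against 5.91%, whereas both members that passed without the covariate were lower. In the interaction 3 passed (1 higher, 2 lower), against 3.67%.

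The other mitochondrial lists held 65 transcripts. Between saline HF-HI and saline sham, 2 of the 65 were higher and 2 lower at an unadjusted limma p-value under 0.05. Of all transcripts 9.53% passed, 4.58% as higher and 4.95% as lower. In any contrast 0 of the 65 had an adjusted limma p-value under 0.1. Of the 29 transcripts of the citric acid cycle and pyruvate dehydrogenase, Pdk1, a kinase that shuts pyruvate dehydrogenase down, went from 1472 ± 60.2 counts in saline sham to 1559 ± 70.5 in saline HF-HI (limma p = 0.00778) and from 1536 ± 68.1 in memantine sham to 1616 ± 74.4 in memantine HF-HI (limma p = 0.0157), with 10 libraries per group. Pdk1 was also higher in memantine sham than in saline sham (limma p = 0.0441). Its adjusted limma p-values in these contrasts were 0.340, 0.967 and 0.646. Also passing in saline HF-HI against saline sham were Pdp1 of the same list (lower, limma p = 0.0326), the assembly factor Coa5 (lower, limma p = 0.0153) and the carrier Slc25a12 (higher, limma p = 0.0483). In memantine HF-HI against memantine sham, 3 of the 65 were higher and 0 lower, where 4.61% of all transcripts passed. Among 11 carriers and porins, Slc25a3, the phosphate carrier that feeds ATP synthase, was lower in memantine HF-HI than in saline HF-HI, at 3113 ± 154 against 3247 ± 107 counts (limma p = 0.0274), and lower in memantine sham than in saline sham, at 3110.5 ± 153 against 3229 ± 86.8 (limma p = 0.0497). In memantine sham against saline sham, 3 of the 65 were higher and 4 lower. Of all 6831 transcripts, 251 were higher and 262 lower (7.51% together). Cs, citrate synthase, was higher at 3827 ± 122 against 3676 ± 124 counts (limma p = 0.0142), and Fh1, fumarate hydratase, was lower at 927 ± 53.3 against 988 ± 57.5 (limma p = 0.00618). Of the 7 biogenesis regulators in the table, 1 passed in any contrast, Gabpb2. It was lower in memantine HF-HI than in saline HF-HI, where 2.39% of all transcripts passed as lower. Of 4 mitochondrial ribosome transcripts, 2 were lower in memantine sham than in saline sham (adjusted limma p = 0.636 for both). In that contrast 3.84% of all transcripts passed as lower. Of 4 electron entry transcripts 0 passed in any contrast.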

How the data were processed

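Cortex RNA was sequenced by the authors in 40 libraries. The labels give 4 groups of 10, while the design text of the series gives 4 samples per group. Per the paper's methods, ribosomal RNA was depleted, reads were aligned to mm10 with STAR and counted per transcript with eXpress. The submitters' processing notes name HISAT2 and StringTie instead. The deposited values are log2-scale, variance-stabilised by the authors with DESeq2 after size-factor scaling, for abundant transcripts only. They were inverted from their floor value to normalised counts. A difference of 1 log2 unit of count was about 0.31, 0.43 and 0.86 deposited units at the lowest, median and highest member mean. Of values under 5000 counts, 100% were then whole reads within 0.05, and size factors ran from 0.859 to 1.141. Names and coordinates came from RefSeq (GRCm38.p6), which named 99.6% of transcripts, and lengths from GENCODE M21.

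The main test was limma 3.58.1 (R 4.3.3, lmFit and eBayes with trend, two-sided) on the deposited values, with 1 term per group and 5 contrasts. Transcripts were counted as passing at an unadjusted p under 0.05, which the study's methods use here, and separately at 0.1 after Benjamini-Hochberg adjustment over all 6831. Log2 count changes and 95% intervals are from the same model on log2(count + 1). Permutation tests used 100000 resamples, two-sided. Single transcripts were named if they passed in any contrast, were the highest or lowest of their complex or had the largest or smallest coefficient of variation, or were complex II, cytochrome c or c1, subunit c, Ndufa4, Atpif1 or a gene with several transcripts. Other genes were named after their values were seen. The values of 1 member are not reported here, though it is counted in the totals. The procedure was tested on simulated data. The effect of 14 alternatives is given in the closing section. The members and lists were chosen with earlier results of these data known. Isoforms of a gene share reads, so their split is uncertain.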

Additional observations from a re-analysis of the deposited data

Results flagged for a closer look

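The impact effect on Ndufv2 (NM_028388) differed between the drug arms in the interaction test (limma p = 0.0144, adjusted p = 0.999). The effect under memantine minus that under saline was 0.13 on the deposited scale and 0.32 on the log2 count scale. The values of 28 named transcripts in each group of 10 were also checked for a highest or lowest library far from the rest, in 112 groups, where chance alone marks about 1 group in 20. There were 4 such values. Atpif1 was highest at 1615 counts in saline HF-HI replicate 3, next to 1541, and lowest at 1351 in memantine HF-HI replicate 7, next to 1492. Cox4i1 was highest at 5598 in memantine sham replicate 1, next to 5153. Uqcr11 was lowest at 895 in memantine sham replicate 5, next to 1027, and this library also had the lowest mean deviation of all members.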

How the results depend on the processing

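With 14 alternatives, 51 of the 69 recomputed counts of members stayed within 1.5 times, 0 members had an adjusted p under 0.1 in any of them, and the smallest adjusted p was 0.131. The counts that moved are these, where the cause was not tested. With the short transcripts as covariate they were 6 instead of 3 for impact under saline, 3 for impact under memantine, 5 for memantine in impacted mice and 3 instead of 1 in the interaction, where 10.3%, 4.95%, 4.10% and 3.67% of all transcripts passed. For memantine in sham mice 3 members, all higher, passed with that covariate and 2, both lower, without it. Against 0 members for impact under memantine, library weights gave 2, where 7.51% of all transcripts passed (4.61% in the main fit). Voom on recovered reads, the replicate block, median centring and the first residual component each gave 1, where 4.77%, 4.60%, 5.39% and 6.90% passed. Against 2 for memantine in impacted mice, a minimum mean count of 1000, voom and quantile normalisation each gave 1. There 3.66%, 3.88% and 3.92% of all transcripts passed. Striatal markers as covariate and a fit to only the 2 groups compared also gave 1 each, where 3.75% and 4.29% passed. Against 2 for memantine in sham mice, the minimum of 1000, which leaves out both transcripts, gave 0 and the fit to the 2 groups gave 1. In these fits 7.84% and 7.09% of all transcripts passed. The interaction had 2 with library weights and 2 with the replicate block, where 5.53% and 3.88% of all transcripts passed. Same-numbered libraries showed little common variation (correlations from -0.13 to 0.16), which cannot settle whether the numbers pair samples. Of 108 recomputed changes of the passing transcripts, 0 changed sign, 95 stayed past the threshold and 13 did not. Ndufv2 passed in 14 of 14 alternatives under saline (adjusted p 0.131 to 0.663) and in 13 of 13 for the interaction. Uqcr11 missed with the block (p = 0.0517) and with striatal markers (p = 0.106), and Ndufb9 with library weights (p = 0.0648). Uqcrc1 and Ndufb4 passed in 12 of 14 and 9 of 13 alternatives, Atp5g3 and Ndufc2 in 10 of 13 and 12 of 13, and both missed with the short transcripts as covariate (p = 0.0589 and 0.0811). The other settings, which moved no count by over 1.5 times, were pseudocounts of 1 and 10 on the log2 count, a variance prior without trend and counts summed by symbol. Depth sets a floor, since counting error had a median SD of 0.0415 on the log2 scale over members.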
